A study of Mus musculus with 130 samples.

Results

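The homeobox, Sox and neural bHLH patterning factors are transcription factors of the Hox, LIM homeobox (Lhx and Isl), Dlx, Msx, Nkx, Pax, sine oculis, Iroquois, Olig, Atoh, Neurog, Neurod and Sox families, here measured in single 2-cell mouse embryos. Members were chosen by gene symbol, with Sox2 left out, and by a mean of at least 1 CPM (a count scaled to the embryo's total count) in the treated or in the control embryos. Of 123 genes of these families by name, 52 met the rule, out of 36161 genes with an identifier in all. The level that chose them comes from the same contrast as the fold changes below, so the members' values are a description and carry no test. The threshold was reached by 23 of them only with the treatment, by 28 in both groups and by 1, Sox13, only in controls.

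B6129F1 zygotes were isolated at 5 hours after fertilization. From 6 hours on, the KSOM medium held 10 µM SR1848, a small molecule used to block the orphan nuclear receptor Nr5a2, or 0.1% DMSO, its solvent. Culture was in wet chambers with no oil layer in both groups, and the labels name no engineered allele. Each embryo was lysed on its own for a Smart-seq2 library primed with oligo-dT, giving 80 SR1848 and 50 DMSO embryos at the 2-cell stage (the design text lists 56 controls, of which 6 were not analysed here). The series concerns Nr5a2 as a factor of zygotic genome activation, when the embryo first transcribes its genome.

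Factors of these families bind DNA through a homeodomain, a paired domain, an HMG box or a basic helix-loop-helix domain, and are known for setting position and cell identity after gastrulation. Hox genes lie in 4 clusters and mark position along the body axis, LIM homeobox, Nkx, Pax and neural bHLH factors divide the neural tube into progenitor and neuron types, and Dlx, Msx and sine oculis factors act in the face, limbs and sense organs. In early embryos and stem cells many of their promoters lie in CpG islands that Polycomb complexes occupy, and their RNA is usually scarce there.

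The promoters of 5 of the abundant members that varied together among SR1848 embryos are shown first, because the members are compared below by what their promoters share. Each line holds the 250 bases before the RefSeq start site on GRCm38.p6, read 5′ to 3′ along the gene. Capitals mark the CCAAT box or its reverse complement ATTGG and, in Msx1, a match to AAGGNCA read from the other strand, the half-site type of sequence that monomeric nuclear receptors such as Nr5a2 recognise.
Msx1 (chr5:37824586-37824835, minus strand): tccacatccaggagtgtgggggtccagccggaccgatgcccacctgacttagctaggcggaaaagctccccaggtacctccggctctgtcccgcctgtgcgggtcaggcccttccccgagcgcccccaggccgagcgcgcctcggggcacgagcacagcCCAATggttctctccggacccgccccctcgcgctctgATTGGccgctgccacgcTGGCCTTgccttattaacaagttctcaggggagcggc
Isl2 (chr9:55540899-55541148, plus strand): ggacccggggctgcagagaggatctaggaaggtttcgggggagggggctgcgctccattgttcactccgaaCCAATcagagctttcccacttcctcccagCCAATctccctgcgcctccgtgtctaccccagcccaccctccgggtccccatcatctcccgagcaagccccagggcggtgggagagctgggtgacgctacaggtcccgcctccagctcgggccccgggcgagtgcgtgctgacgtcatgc
Dlx2 (chr2:71546755-71547004, minus strand): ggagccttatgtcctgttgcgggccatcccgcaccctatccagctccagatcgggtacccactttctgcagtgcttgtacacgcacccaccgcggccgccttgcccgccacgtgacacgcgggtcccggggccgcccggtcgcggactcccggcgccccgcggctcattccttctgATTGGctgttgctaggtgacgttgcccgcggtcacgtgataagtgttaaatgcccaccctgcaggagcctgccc
Nkx6-2 (chr7:139582798-139583047, minus strand): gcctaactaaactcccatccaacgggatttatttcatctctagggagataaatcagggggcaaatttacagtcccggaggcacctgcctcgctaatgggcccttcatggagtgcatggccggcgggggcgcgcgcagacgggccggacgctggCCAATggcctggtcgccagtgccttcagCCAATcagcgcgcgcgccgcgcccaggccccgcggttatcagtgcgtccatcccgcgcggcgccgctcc
Sox8 (chr17:25570687-25570936, minus strand): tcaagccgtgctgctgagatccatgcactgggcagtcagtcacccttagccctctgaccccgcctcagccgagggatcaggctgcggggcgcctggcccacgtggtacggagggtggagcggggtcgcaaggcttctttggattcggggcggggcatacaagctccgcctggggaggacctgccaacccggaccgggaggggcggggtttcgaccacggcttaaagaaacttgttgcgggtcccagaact

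Isl2 and Nkx6-2 each hold more than one CCAAT box in this window, Msx1 holds one in each orientation, Dlx2 holds one, and Sox8 holds none. RefSeq promoters were matched for 38 of the 52 members, taking the entry nearest to the start of the gene's most counted transcript. The entry lay 30994 bases from that start for Sox13, 6295 for Pax6, 1332 for Dlx1 and 1068 for Hoxa7. For the other matched members it lay at most 549 bases away. A distant window need not be the promoter of the counted transcript. CCAAT, searched on both strands, was present in 25 of the 38 (65.8%), beside 37.8% of 9868 other tested genes (their first listed promoter) and 33.85% of all 32851 promoters. AAGGNCA was present on either strand in 2 of the 38, Msx1 and Hoxd10 (5.26%), beside 14.2% of the other tested genes and 17.5% of all promoters. The GC box GGGCGG stood in 55.3%, beside 56.7% of the other tested genes. TATAAA stood in 10.5%, beside 7.05% of the other tested genes. A core that many homeodomains bind, TAATTA, stood in 5.26%, beside 2.74%. None of these motifs lies within another, and a match says only that the letters are present. A CpG observed-to-expected ratio of at least 0.6 was found in 30 of the 38 (78.9%), in 65.6% of the other tested genes and in 33.95% of all promoters.

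Counts per embryo summed to 2730852 to 7824458 with SR1848 (median 4657122) and 3173683 to 8438537 in controls (median 5476180), so that 1 CPM rests on a few reads and low members are measured coarsely. The edgeR quasi-likelihood test kept 13224 genes, of which 5837 (44.1%) were called higher with SR1848 and 4943 (37.4%) lower at a Benjamini-Hochberg adjusted p under 0.05. The median log2 fold change of all tested genes was 0.19. No label tells which embryos came from the same mother or culture drop, so p-values measure only the spread between these embryos. CPM is a share of the library: a change in an embryo's total RNA cannot be told apart from a change of the other genes. Scaled to 63 oocyte transcripts, the median of all tested genes moved to -0.64. These transcripts themselves differed in the test above: of 61 tested, 46 were called higher and 7 lower (median log2 fold change 0.79). Their summed level had a median of 48820 CPM with SR1848 and 26690 CPM in controls. This scaling sets that sum equal in all embryos, so it lowers the fold changes of all genes.

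Among the members, 36 passed the filter on low counts. Of these, 27 were called higher and 3 lower, Sox13, Pax3 and Sox15. These counts are given beside the 44.1% and 37.4% of all tested genes and nothing is read from them, since membership used the same contrast. The median log2 fold change was 2.54 for the 36 and 2.60 for all 52 without the filter. With oocyte scaling it was 1.92 for the 36, with 21 called higher and 7 lower. Under that scaling 2407 of all 13224 tested genes were called higher and 7381 lower. The 16 members that did not pass the filter all had higher means with SR1848, from 1.10 to 4.96 CPM, and control means from 0.00482 to 1.53 CPM. Over all 52, the mean was higher with SR1848 in 46, and the control median was 0 in 24.

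**Figure D1:**
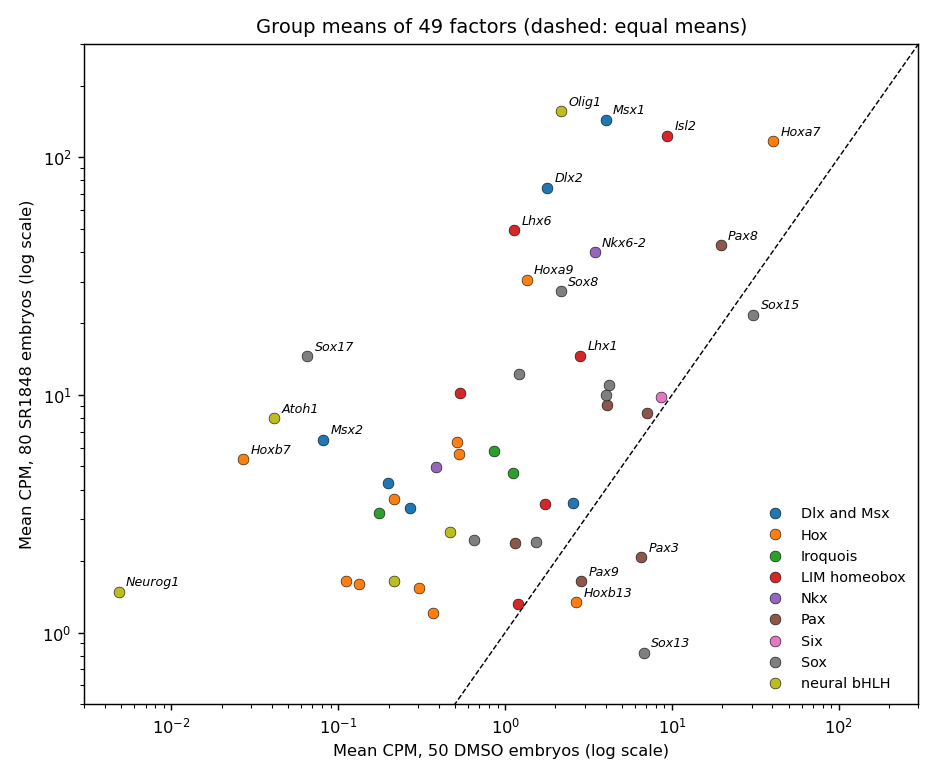
Mean CPM of 49 of the 52 factors in 50 DMSO embryos (horizontal, log scale) against 80 SR1848 embryos (vertical, log scale), coloured by family, with a dashed line at equal means. 44 points lie above the line, and Sox13, Pax3, Hoxb13, Pax9 and Sox15 lie below it.

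Just above the threshold stood Hoxd13 (a digit and hindgut gene, 1.12 CPM with SR1848 on total-count scaling), Lhx2 (1.28), Neurog1 (1.44) and Hoxc9 (1.46). Just below it stood Hoxa3 (0.995), Hoxa13 (0.994), Hoxa2 (0.950), Sox12 (0.866, in controls) and Sox5 (0.848). The 71 family genes that stayed below had a median group mean of 0.144 CPM with SR1848 and 0.0586 in controls, and 53 of them had the higher mean with SR1848. Hoxd13 owes its place to 1 embryo: its SR1848 mean of 1.20 CPM on the TMM scale was 0.746 without the highest embryo.

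The neural bHLH factors hold the member with the highest mean CPM with SR1848. Olig1, a factor of oligodendrocyte precursors encoded by a single exon (chr16:91269772-91271933, plus strand), had a lowest, median and highest value of 4.18, 118 and 713 CPM among the SR1848 embryos and of 0, 1.41 and 14.9 CPM among the controls. Only 3 SR1848 embryos, numbers 13, 51 and 61, were not above the highest control. The mean was 156 ± 131 CPM (SD, n = 80) against 2.17 ± 2.95 (n = 50), a 72.2-fold ratio with a log2 fold change of 6.15 (SE 0.35). In the ranking of all genes by mean level Olig1 stood at place 1202 with SR1848 and at place 12243 in controls. Its neighbour Olig2, which lies 41095 bases away, had a mean of 0.351 CPM with SR1848 and 0.0740 in controls. The 2 levels of Olig1 and Olig2 did not vary together among SR1848 embryos (Spearman's rho 0.01).

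Atoh1, which directs cerebellar granule neurons and inner-ear hair cells, had 0, 3.12 and 73.6 CPM as lowest, median and highest value with SR1848 and 0, 0 and 1.64 in controls. It was without a count in 31 SR1848 embryos and in 48 of 50 controls, and 45 SR1848 embryos lay above every control. Its control counts came to 10 in all, so the 194-fold ratio of means is imprecise. Without the highest control embryo the control mean of 0.0413 CPM was 0.00872. Neurog1, a factor of sensory neuron precursors, had 1 control read in all, and 47 SR1848 embryos were above the highest control. Neurog2 and Atoh7, the other 2 neural bHLH members, had SR1848 means of 2.64 and 1.64 CPM and control means of 0.464 and 0.217 CPM, and neither passed the filter.

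The Dlx and Msx factors pattern the face, limbs and forebrain, and all 6 members had the higher mean with SR1848. Msx1 (chr5:37820485-37824583, minus strand) had 14.8, 107 and 641 CPM as lowest, median and highest value with SR1848 and 0, 3.35 and 14.7 in controls. Every SR1848 embryo was above every control, though the gap between the groups, 14.84 against 14.72 CPM, was narrow. Msx1 was the only 1 of the 13224 tested genes (0.00756%) with that order, and in 248 (1.88%) every SR1848 embryo was below every control. The log2 fold change of Msx1 was 5.15 (SE 0.27). Its paralog Msx2 had 0, 3.73 and 49.2 CPM with SR1848 and 0, 0 and 1.81 in controls, with 49 SR1848 embryos above every control.

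Dlx2, which acts in forebrain interneurons and the jaw, had 0.923, 36.8 and 582 CPM with SR1848 and 0, 1.502 and 8.70 in controls. In 70 of 80 SR1848 embryos it was above every control, and the lowest SR1848 embryo lay within the control range (log2 fold change 5.35, SE 0.40). Dlx1, which lies 9427 bases away in the opposite orientation, had means of 3.34 and 0.270 CPM, and its rank order among SR1848 embryos followed that of Dlx2 only weakly (rho 0.24). Coding transcripts took 53.5% of the Dlx1 counts with SR1848 and 13.3% in controls. Msx3 and Dlx3 had SR1848 means of 4.27 and 3.52 CPM. Dlx3 overlapped broadly between the groups, with medians of 2.29 and 2.13 CPM.

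**Figure D2:**
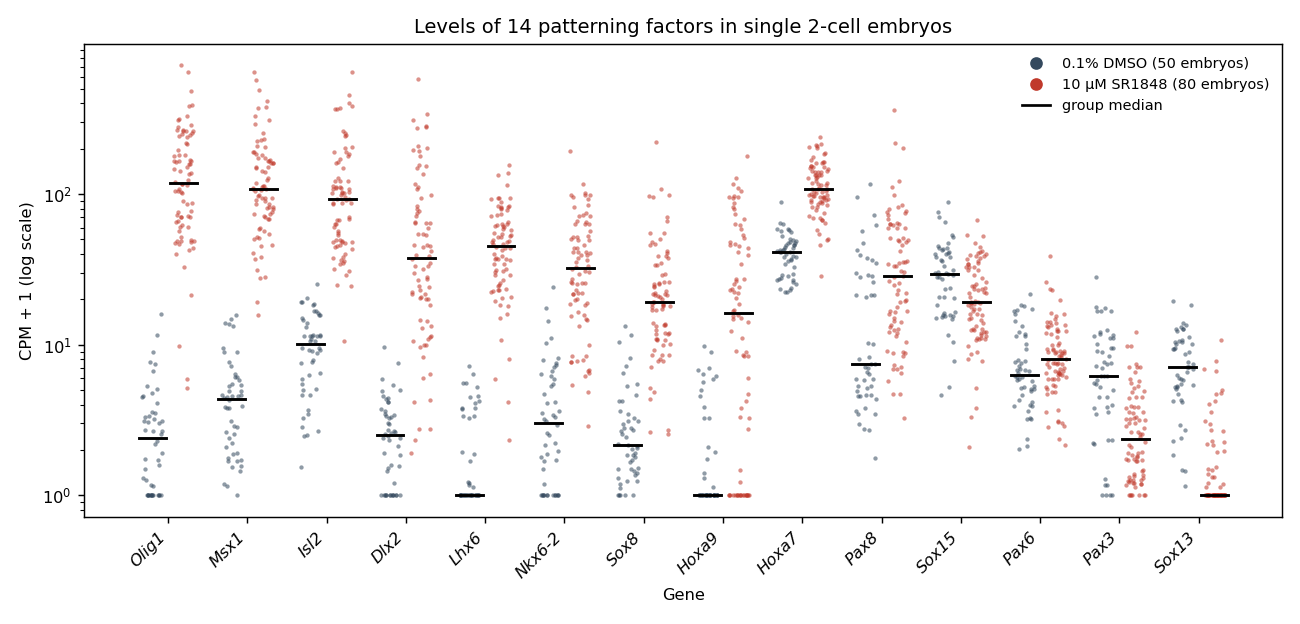
CPM + 1 on a log scale for 14 of the 52 factors in each of 50 DMSO (dark) and 80 SR1848 (red) embryos, with group medians as black bars. The groups separate for Msx1 and nearly so for Olig1, Isl2 and Lhx6, overlap for Pax6, and lie the other way round for Sox13.

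The LIM homeobox factors specify neuron types together with the cofactor Ldb1. Isl2, a motor neuron factor (chr9:55538672-55546180, plus strand), had 9.57, 91.5 and 650 CPM as lowest, median and highest value with SR1848 and 0.537, 9.05 and 24.4 in controls. The SR1848 embryos 4, 8 and 55 were not above the highest control (log2 fold change 3.72, SE 0.23). The transcripts behind the level differed: the coding transcripts took 81.3% of the Isl2 counts with SR1848 and 44.1% in controls, where a transcript annotated as subject to nonsense-mediated decay took 50.1%. The mean of the main coding transcript was 99.3 ± 111 CPM against 3.95 ± 3.68, and that of the decay transcript 19.98 ± 20.5 against 4.67 ± 3.95 (SD, n = 80 and 50).

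Lhx6, a factor of interneurons of the ventral forebrain, had 1.319, 44.4 and 156 CPM with SR1848 and 0, 0 and 6.24 in controls. The 3 SR1848 embryos not above the highest control were numbers 13, 28 and 51, of which 13 and 51 were also low for Olig1. Lhx1, which acts in the head organizer and kidney, had medians of 10.8 and 1.70 CPM, with 33 SR1848 embryos above every control. Lhx5, a forebrain factor, had medians of 4.35 and 0.0621 CPM and was without a count in 17 SR1848 embryos. Isl1 had means of 3.47 and 1.73 CPM and passed the filter. Lhx2, which acts in the eye and cortex, differed little, with means of 1.33 ± 2.15 and 1.19 ± 1.41 CPM, and was the 1 LIM member whose median was lower with SR1848.

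The Hox genes were represented by 12 of 39, and the levels did not follow the order within the clusters. Hoxa7 (chr6:52214491-52221854, minus strand), a trunk-level Hox gene, had 27.7, 107 and 237 CPM with SR1848 and 21.3, 40.3 and 87.6 in controls. It was present in every embryo of both groups, and 61 SR1848 embryos lay above the highest control (log2 fold change 1.54, SE 0.10). Its neighbour Hoxa6, 5769 bases away, had means of 0.119 and 0.0398 CPM. Hoxa9, on the other side of Hoxa7 at 1246 bases, had 0, 15.3 and 177 CPM with SR1848 and 0, 0 and 8.81 in controls. It was without a count in 19 SR1848 embryos and above every control in 47, so the treated embryos ranged from no count to levels far above the controls. Hoxa7 and Hoxa9 did not vary together among SR1848 embryos (rho -0.06), and neither did Hoxa9 and Hoxa10 (rho 0.09).

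Hoxb7 had a median of 1.81 CPM with SR1848, was seen in 2 of 50 controls and lay above every control in 42 SR1848 embryos. It stands between Hoxb8 and Hoxb6, whose SR1848 means were 0.00169 and 0.135 CPM. Hoxb13, at the far end of its cluster, had the lower mean with SR1848, 1.35 ± 2.72 against 2.67 ± 2.56 CPM, and was not called. It was called lower in 6 of the 11 other settings that tested it, and oocyte scaling gave a log2 fold change of -1.81. The Hox members Hoxa5, Hoxa10, Hoxb2, Hoxc9, Hoxd1, Hoxd10 and Hoxd13 had SR1848 means from 1.20 (Hoxd13) to 6.35 CPM (Hoxd1), each above the control mean.

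**Figure D3:**
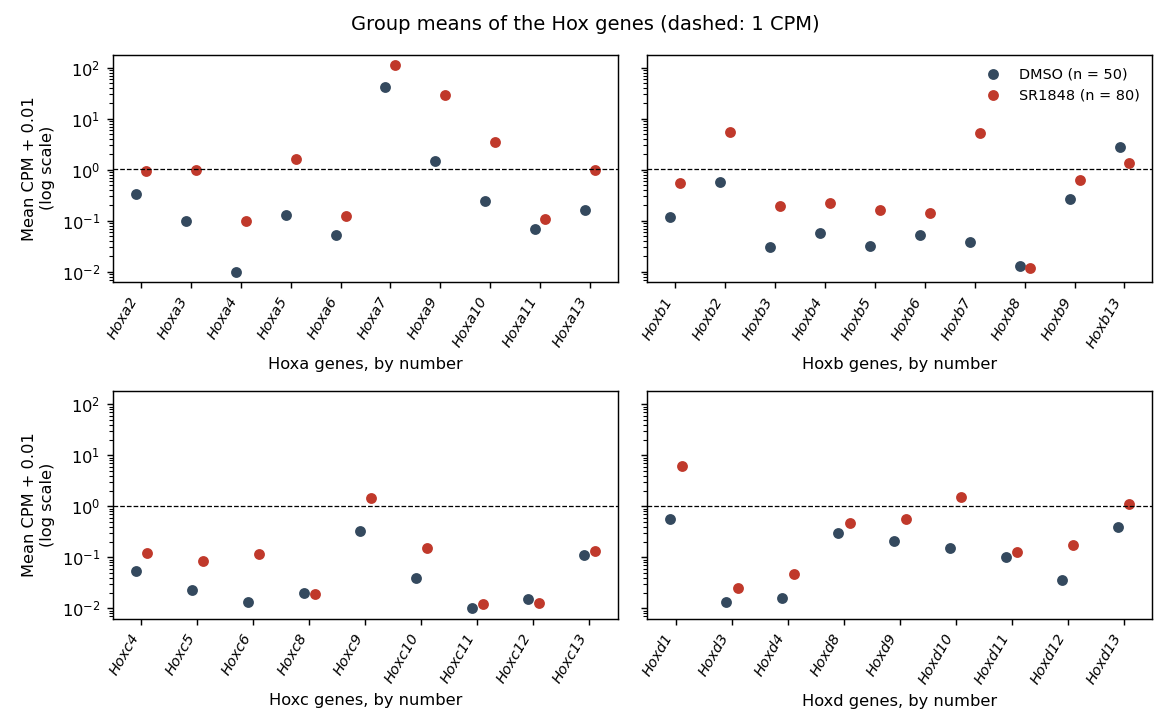
Mean CPM + 0.01 (log scale, total-count scaling) of 38 Hox genes of the 4 clusters, by gene number, in DMSO (dark, n = 50) and SR1848 (red, n = 80) embryos, with a dashed line at 1 CPM. Hoxa7 stands highest in both groups and single genes such as Hoxa9, Hoxb2, Hoxb7 and Hoxd1 stand above their neighbours with SR1848.

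Of the Nkx factors, Nkx6-2, which acts in motor neuron and oligodendrocyte development, had 1.89, 31.3 and 192 CPM with SR1848 and 0, 2.03 and 23.1 in controls. In 50 SR1848 embryos it was above every control, and coding transcripts took 87.3% of its counts with SR1848 against 60.2% in controls. Nkx2-3 had means of 4.96 and 0.387 CPM and did not pass the filter. The Iroquois members Irx5, Irx2 and Irx3, which act in heart and neural patterning, had SR1848 means of 5.82, 4.68 and 3.19 CPM and a control median of 0 each, and 1 of the 3, Irx5, passed the filter.

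The Pax factors, known from eye, kidney, thyroid and muscle development, were mixed. Pax8 had 2.24, 27.4 and 362 CPM with SR1848 and 0.763, 6.41 and 116 in controls, and 4 SR1848 embryos were above the highest control. Nearly all of this signal, 99.98% with SR1848 and 100% in controls, was assigned to a transcript annotated as a retained intron (chr2:24471885-24475574), so it does not show a Pax8 coding RNA. The call for Pax8 was lost with oocyte scaling (log2 fold change 0.33). Pax2 had medians of 7.81 and 3.72 CPM, with 15 SR1848 embryos above every control, and its call was lost with the same scaling. Pax6 had medians of 7.01 and 5.34 CPM, with ranges that overlapped almost fully, and was not called. Its call depended on the scaling: it was called lower with oocyte scaling (log2 fold change -0.51) and higher with upper-quartile factors (0.52).

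Pax3, a neural crest and muscle factor, was lower with SR1848, with 0, 1.35 and 11.1 CPM against 0, 5.21 and 26.95 in controls (log2 fold change -1.65, SE 0.30). No SR1848 embryo was above the highest control, and 8 were above the control median. Coding transcripts took 92.9% of its counts in controls and 43.5% with SR1848, where a processed transcript with fewer exons took 56.5%. Pax9 had the lower median with SR1848, 0.503 against 2.58 CPM, and was not called. It was called lower in 4 of the 11 other settings that tested it. Pax5 had medians of 1.42 and 0.744 CPM.

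Six4, a sine oculis factor that acts in muscle and kidney, was not called. It had 0, 5.21 and 106 CPM with SR1848 and 0, 7.62 and 27.6 in controls, so the treated median was lower and the treated maximum higher. In all, 5 SR1848 embryos were above the highest control. The sign of Six4 turned with oocyte scaling, with limma-voom and with the replicate number as a block.

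Among the Sox factors, Sox15, which is expressed in preimplantation embryos and embryonic stem cells, had the highest mean per length of all members in controls. It had 1.09, 18.1 and 66.2 CPM with SR1848 and 3.65, 28.5 and 87.3 in controls, and 23 SR1848 embryos were above the control median (log2 fold change -0.50, SE 0.16). The call was lost with upper-quartile factors (log2 fold change -0.27) and with the replicate number as a block. Exons of Mpdu1 on the opposite strand overlap 3.60% of the Sox15 transcript. Mpdu1 had means of 8.93 and 38.9 CPM and varied with Sox15 among SR1848 embryos (rho 0.45), and its part in the Sox15 value was not tested.

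Sox13, a SoxD factor, was the member with the largest decrease: it had 0, 0 and 9.69 CPM with SR1848 and 0.153, 6.11 and 18.5 in controls. It was counted in every control and without a count in 50 of 80 SR1848 embryos, and 52 SR1848 embryos lay below the lowest control (an 8.19-fold lower mean, log2 fold change -3.001, SE 0.39). Sox6, of the same SoxD group, went the other way, with medians of 8.70 and 3.09 CPM, and its call was lost with oocyte scaling. Sox8, a SoxE factor of glia and gonad, had 1.57, 18.2 and 219 CPM with SR1848 and 0, 1.15 and 12.4 in controls, with 54 SR1848 embryos above every control. Sox9, also SoxE, had means of 2.46 and 0.650 CPM.

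Sox17, an endoderm factor, had 0, 4.99 and 122 CPM with SR1848 and 0, 0 and 2.28 in controls. It was without a count in 27 SR1848 embryos and in 47 of 50 controls, whose counts came to 21 in all, and 46 SR1848 embryos lay above every control. Its control mean of 0.0652 CPM was 0.0201 without the highest control embryo. The SoxC factors Sox11 and Sox4, which act in neuron differentiation, had SR1848 medians of 7.76 and 8.85 CPM and control medians of 0.409 and 3.11 CPM. Sox30, known from spermatids, had means of 2.42 and 1.53 CPM.

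Beyond the values the rule used, the members share a gene structure. The most counted transcript had at most 3 exons in 37 of the 52 (71.2%), beside 22.5% of all tested genes, and a single exon in 6 (11.5%, beside 7.77%). The median transcript length was 2500 bases, against 2506 for all tested genes. Exons of another annotated gene overlap the main transcript in 12 members, among them Hoxb2 with Hoxb3os (58.5% of the transcript), Sox4 with Gm26735 (54.6%) and Hoxa7 with Hoxaas3 (28.8%), all on the opposite strand. The sources used here do not say whether counting used strand, so reads of these pairs cannot be told apart. Hoxb3os, Gm26735 and Hoxaas3 have no entry among the counted genes, so their own levels are not known.

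Per kilobase of transcript, the order of levels differed between the groups. With SR1848, Hoxa7 had 79.5 ± 31.8 CPM per kb, Msx1 74.3 ± 62.1, Olig1 72.3 ± 60.7 and Isl2 71.1 ± 64.3 (SD, n = 80). Their spreads among embryos overlapped, and their order was not tested. Dlx2 (30.1), Nkx6-2 (29.4), Sox15 (25.3) and Hoxa9 (20.6) followed. In controls, Sox15 (35.7 ± 20.99) and Hoxa7 (25.9 ± 10.0) had the highest means (SD, n = 50). Their spreads among embryos overlapped as well, and their difference was not tested. Isl2 (5.82), Pax8 (5.80) and Pax6 (4.48 CPM per kb) came next, below both.

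Counted by embryo, the number of members at 1 CPM or more had a lowest, median and highest value of 21, 34 and 43 with SR1848 and of 12, 22 and 32 in controls, and 47 SR1848 embryos were above the highest control. The summed level of the 52 members was 292, 894 and 2718 CPM with SR1848 and 117, 176 and 287 CPM in controls. The groups did not overlap in this sum, of which the 6 most abundant members made up 64.4% with SR1848. The members were chosen by their means in these same groups, 23 of them only through SR1848, so this separation carries no test. At the level of single genes, 14 of the 52 members had at least 40 SR1848 embryos above every control. They include Neurog1, which did not pass the filter. The same held for 7.53% of all tested genes, which all passed it, and nothing is read from the difference. Detected genes per embryo ran from 13940 to 18210 with SR1848 and from 15000 to 16980 in controls. Across the 80 SR1848 embryos the sum did not follow total count (rho 0.01) or detected genes (rho -0.04), while the number of members followed detected genes (rho 0.37).

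**Figure D4:**
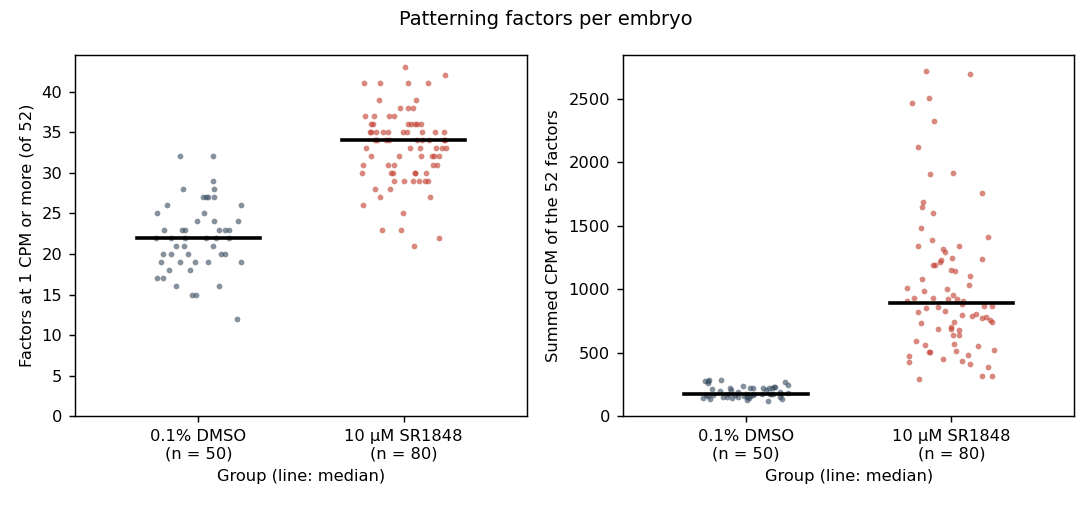
Number of the 52 factors at 1 CPM or more (left) and their summed CPM (right) in each of 50 DMSO and 80 SR1848 embryos, with medians as black lines. The numbers overlap between the groups, while every SR1848 sum lies above the highest control sum. The factors were chosen by their means in these same groups.

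The members did not all vary together. Over the 27 members with an SR1848 mean of at least 5 CPM, the 351 pairwise rank correlations across SR1848 embryos had a median rho of 0.16, from -0.49 to 0.80. Across controls the median was 0.07, where many values are at or near 0. Olig1, Msx1, Isl2, Dlx2, Nkx6-2 and Sox8, a set picked after its values were seen, had a median rho of 0.61 over their 15 pairs, from 0.39 to 0.80, and Msx1 with Dlx2 (0.80) and with Olig1 (0.79) stood highest. In controls the same pairs had a median rho of 0.19. In 6 SR1848 embryos all 6 genes were among their 20 highest, and in 42 none was. These points share libraries, so the correlations are given as a description. The highest SR1848 value lay in embryo 67 for Olig1 and Sox8, 72 for Msx1, 74 for Isl2 and Dlx2, and 75 for Nkx6-2. In embryos 67 to 75 Dlx2 ran from 155 to 582 CPM, against a median of 36.8 over all 80, while Sox8 ran from 6.82 to 219 CPM. The labels do not say whether neighbouring numbers were processed together, and their part in the correlations was not tested.

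Hoxa7, close to the leading members per kilobase, had a median rho of 0.03 with the 6. Pax2 had a negative rho with each of them, from -0.49 with Olig1 to -0.26, while among controls its rho with the 6 had a median of 0.18, from -0.04 to 0.58. Lhx6 had a median rho of 0.27 with them. The rho of Olig1 and Msx1 with total count was 0.06 and 0.05.

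**Figure D5:**
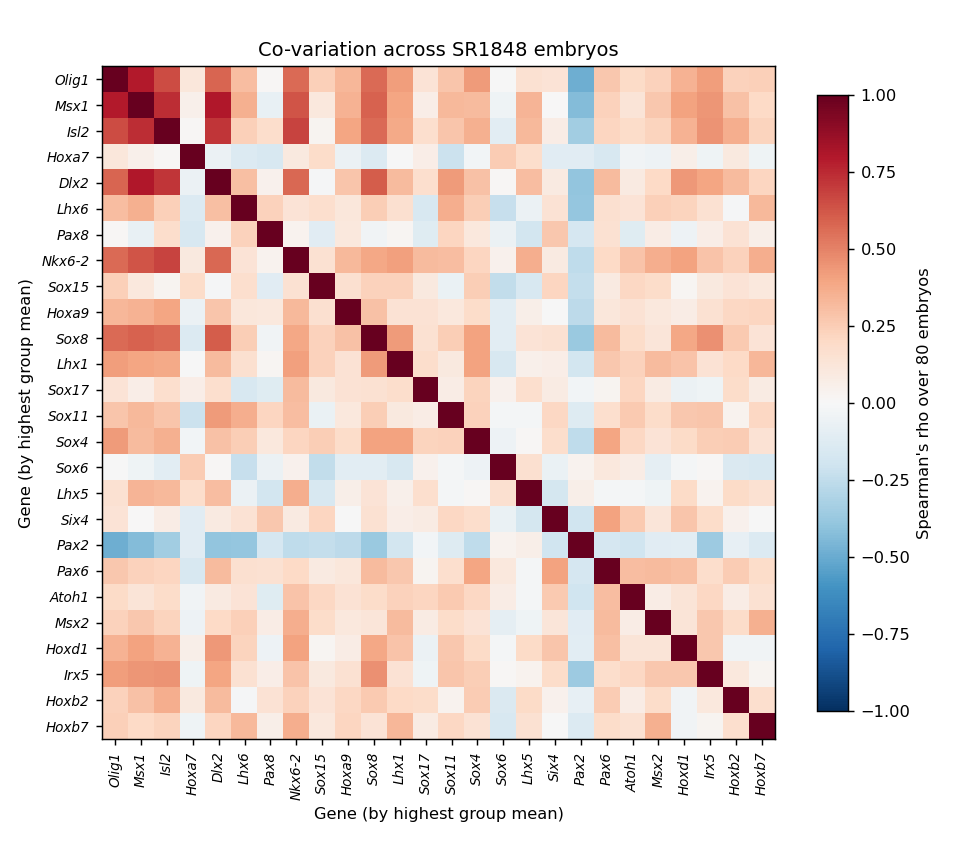
Spearman's rho across 80 SR1848 embryos between pairs of 26 of the 27 factors with an SR1848 mean of at least 5 CPM, ordered by their highest group mean on both axes (red positive, blue negative). Olig1, Msx1, Isl2, Dlx2, Nkx6-2 and Sox8 have the darkest red cells with one another, and the Pax2 row is mostly blue.

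The non-member genes with the highest positive rank correlation to the mean log2 CPM of the members across the SR1848 embryos, among 6041 genes with a mean of at least 20 CPM (median rho 0.01), included Marcksl1 (rho 0.75), Brd2 (0.74), Hspa2 (0.74), Hspb1 (0.74), Mrps26 (0.74), Noa1 (0.73), Cdkn1c (0.73), Tob1 (0.72) and Gm13135 (0.72). Correlations of the other sign were as strong: the 5 most negative, taken after their values were seen, were Immp1l (-0.79), Prdx1 (-0.79), Orc5 (-0.77), Trim61 (-0.77) and Nuf2 (-0.77). The group differences of the positively correlated genes were not alike. Cdkn1c had means of 171 and 17.95 CPM with SR1848 and DMSO, and Noa1 had 158 and 179 CPM.

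The partners of the members were mixed, and these genes played no role in the rule. Of 143 tested genes in 9 lists of partners, signals and chromatin regulators, 81 were called higher and 33 lower, beside 44.1% and 37.4% of all tested genes. With oocyte scaling 39 were called higher and 60 lower, beside 2407 and 7381 of all 13224 tested genes. Each list's median log2 fold change stands beside the 0.19 of all tested genes. Of 8 tested TALE homeobox cofactors of Hox proteins (median log2 fold change 0.58), 4 rose and 3 fell: Tgif2 rose from 21.8 to 47.4 CPM (edgeR adjusted p = 3.3e-17), Meis2 rose from 182 to 394 CPM (a call lost with oocyte scaling), and Pknox1 fell from 58.2 to 18.4 CPM. Of 8 cofactors of LIM homeodomain proteins (median 0.63), 6 rose and 2 fell. Lmo1, which competes for Ldb1, had 315 ± 220 CPM in controls and 1003 ± 604 with SR1848 (edgeR adjusted p = 1.3e-19). Ldb1 itself had means of 8.07 and 13.7 CPM, called higher, and its sign turned with oocyte scaling (-0.07).

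Of 7 partners and inhibitors of bHLH factors (median 1.94), 5 rose and the other 2 were not called. The inhibitors Id2, Id1 and Id3 rose most: Id2 had 32.8 ± 37.8 CPM in controls and 307 ± 209 with SR1848 (log2 fold change 3.23, SE 0.23, edgeR adjusted p = 1.2e-26), with all 80 SR1848 embryos above the control median. Of 5 tested genes of the Groucho (Tle) family (median -0.03), 2 rose and 1 fell. Tle5 rose from 1.56 to 5.18 CPM and Tle3 fell from 6.22 to 1.53 CPM. Tle6 was called higher and turned its sign under oocyte scaling, for which it is itself among the reference transcripts. Of 3 tested partners of sine oculis factors (median 0.71), Eya1 rose from 20.3 to 67.3 CPM and Eya3 fell from 55.8 to 38.99 CPM. Eya4 had means of 4.61 and 7.57 CPM, and its sign turned with oocyte scaling.

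The Polycomb list held both directions: of 30 tested genes (median log2 fold change -0.0073) 9 rose and 12 fell. Mtf2, a Polycomb-like subunit that recruits PRC2 to CpG islands, fell: its level was 572 ± 156 CPM in controls and 94.6 ± 44.4 with SR1848 (log2 fold change -2.60, edgeR adjusted p = 2e-51), and all 80 SR1848 embryos lay below the lowest control. Pcgf1, of variant PRC1, fell from 188 to 72.4 CPM, with 79 embryos below the lowest control, and Rbbp4 fell from 46.95 to 14.3 CPM. Bmi1, of canonical PRC1, rose from 477 to 917 CPM, a call that was lost with oocyte scaling. Of 14 Trithorax genes and H3K27 demethylases (median 0.04), 4 rose and 3 fell. Ash2l fell from 134 to 48.1 CPM and Rbbp5 from 34.8 to 13.8, while Kmt2d rose from 159 to 314 CPM, which was lost with oocyte scaling.

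Other developmental transcription factors were scarce: 30 of 102 were tested (median 1.07), 21 rose and 6 fell. Gata1, a blood cell factor, fell from 193 ± 95.8 to 10.7 ± 10.4 CPM (edgeR adjusted p = 3.8e-35), below every control in all 80 embryos. Prrx2 fell from 11.1 to 0.289 CPM, and Hhex rose from 11.9 to 44.7 CPM. Of 38 tested patterning signals and receptors (median 1.15), 28 rose and 5 fell, and Spry4, an inhibitor of FGF signalling, rose from 488 ± 170 to 1615 ± 564 CPM (edgeR adjusted p = 3.2e-37).

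Counts of called markers stand beside the 44.1% of all tested genes called higher and the 37.4% called lower. The filter kept 6 of 16 neural, 3 of 9 blood and 3 of 12 cumulus and granulosa markers. Of 16 tested 2-cell embryo markers 13 were higher and 3 lower, with summed levels of 350 to 5983 CPM with SR1848 and 468 to 1515 CPM in controls. Neural cell markers had 5 of 6 tested genes higher, and their sum ran from 46.9 to 147 CPM with SR1848 and from 40.3 to 111 CPM in controls. The blood list had 2 of 3 tested genes higher, both alpha globins, with sums of 60.7 to 622 against 11.4 to 141 CPM and Hbb-bt at 0. Oocyte markers had 7 of 10 higher, with sums of 1251 to 5785 against 940 to 2680 CPM. Cumulus and granulosa markers had 1 of 3 higher and 2 lower, at 3.12 to 271 against 27.3 to 96.2 CPM. Sperm markers (0 to 52.2 against 2.39 to 21.95 CPM, Smcp at 0) had 1 tested gene, not called, and none of the fibroblast markers (0.308 to 22.5 against 0 to 9.12 CPM, Col3a1 at 0) was tested. The part of these marker levels in the members' values was not tested.

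In the authors' deposited table of transcript fold changes, the main transcript of each of the 52 members had an entry, and its sign was that of the gene's fold change in 50. The 2 exceptions were Lhx2 and Pax6, both of which differed little between the groups.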

How the data were processed

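RNA of 130 single 2-cell embryos was measured with Smart-seq2, and each embryo's group was taken from its title (SR1848, or NT for the DMSO controls). Per the submitters' processing notes reads were handled with kallisto 0.46.1, Trim Galore 0.6.2, bcl2fastq, DESeq2 1.32.0 and R 3.5.1, and builds mm10 and hg19 are named with no role. The authors deposited kallisto estimated counts for 119358 transcript entries, with 28.5% fractional values. The deposited log2 table of scaled counts was not used. From the authors' deposited comparison per transcript, the log2 fold changes were used only for their signs, and its p-values, score and signal (base mean) were not.

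Estimated counts were summed per gene with the identifiers of the authors' table or GENCODE M21, which also gives the coordinates (mm10), and rounded. Transcripts without a gene held 0.734% of counts and stayed out. The test was edgeR 4.0.16 in R 4.3.3 on 13224 genes kept by filterByExpr: a two-sided quasi-likelihood test (glmQLFTest after a robust glmQLFit and estimateDisp) with TMM factors, Benjamini-Hochberg adjustment and a threshold of 0.05. It was also run on simulated counts with independent embryos and few changed genes. With 81.5% of tested genes called in these data, that run does not cover their setting. Standard errors were derived from the log2 fold change and its F value. CPM in the text use TMM-scaled library sizes, except for membership and the threshold, which use total counts. Totals were 2730852 to 8438537. Counting error alone makes values of a few reads imprecise, and reads carry no molecular identifiers. Estimated counts divide reads among transcripts that share sequence. Promoter sequences are from RefSeq (GRCm38.p6).

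The members and gene lists were chosen with earlier results of these data known. The rule for named genes took the 25 members with the highest group mean, the 5 largest falls, the 5 members nearest above and the 5 family genes nearest below the threshold, the 3 genes of smallest p and the most abundant of each list, and the 10 non-members most correlated with the members. Items that the rule gives but that are withheld are not reported here, and figures leave them out. Other members are named, after their values were seen, with a mean or median. Alternatives were RLE, upper-quartile, total-count and oocyte-transcript scaling, no filter, a filter at a mean of 5 CPM, depth or detected genes as covariate, leaving out embryos of low depth or few genes, the replicate number as a block, limma-voom (limma 3.58.1) and DESeq2 1.42.0.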

Additional observations from a re-analysis of the deposited data

How the results depend on the processing

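Over the 10 other settings that tested the same 36 members, 21 to 29 were called higher (27 with TMM factors) and 2 to 7 lower (3). Of all tested genes, 2407 to 6724 were called higher in these settings and 4320 to 7381 lower. Without a filter 40 of 52 members were called higher, beside 10229 of all 30088 genes. With a mean of at least 5 CPM it was 23 of 29, beside 5038 of 11445. Members called lower were 5 with RLE factors, 5 with total counts, 6 with limma-voom and 7 with oocyte-transcript scaling. Their median log2 fold change of 2.54 was 1.92 with oocyte scaling and 3.34 over the 29 members kept by a mean of 5 CPM. Oocyte scaling moved the median of all tested genes from 0.19 to -0.64, and the members' median stood above it by 2.56, against 2.36 with TMM factors. Membership used the means of these same groups, so nothing is read from this excess. Oocyte scaling also cut the share of called genes that were higher from 54.2% to 24.6%, and turned the 81 higher and 33 lower list genes into 39 and 60. Without a filter 141 of 246 list genes were higher, against 81 of 143. Signs turned for 6 named genes. Kmt2c (0.0045 with TMM factors) gave -0.068 with RLE, -0.14 with total counts, -0.85 with oocyte scaling, -0.017 with detected genes as covariate, -0.085 with the replicate block, -0.0065 with limma-voom and -0.068 with DESeq2. Six4 gave -0.46 with oocyte scaling, -0.12 with the block and -0.32 with limma-voom. With oocyte scaling Pax6 gave -0.51, and 3 genes called higher with TMM factors turned: Ldb1 (0.76) gave -0.074, Tle6 (0.60) -0.21 and Eya4 (0.71) -0.22. Tle6 is itself among the oocyte transcripts that set this scaling, most of which were called higher with TMM factors. The cause of these changes was not tested. Of 681 values of named genes under these settings, 641 kept their direction and their side of the threshold. The labels give both groups embryo numbers, 50 of them shared, but same-numbered embryos did not deviate together (median correlation 0.019, over 0.1 in 2 pairs), and no control correlated best with its own number. This compares equal numbers across the groups only, so it cannot show runs of neighbouring numbers within a group. Such a run was seen for Dlx2, at 155 to 582 CPM in SR1848 embryos 67 to 75. The replicate block gave 25 members higher and 3 lower, with a median log2 fold change of 2.49, and the Sox15 call was lost with it (-0.42). At this depth a level of 1 CPM is a few reads, so an embryo without a count cannot be told apart from one at a low level.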
